A study of Rattus norvegicus with 23 samples.

Results

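Of the genes that govern how the rat liver stores, releases and carries iron, 9 were examined, and 8 of them were measured by a probe set of their own among the 14217 genes with one. They were hepcidin (Hamp), the transferrin receptors Tfrc and Tfr2, the hemochromatosis protein Hfe, the iron exporter ferroportin (Slc40a1), the divalent metal importer DMT1 (Slc11a2), hemopexin (Hpx) and ceruloplasmin (Cp). Transferrin (Tf) was listed by 2 probe sets, each together with another gene, and has no value here. Each gene was read from the probe set annotated to it alone, and where there were several, from the one with the highest mean over the 23 arrays.

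Transcripts were measured on Affymetrix rat arrays in liver (left lateral lobe) of male Sprague Dawley rats, typically 6 to 8 weeks old at the start, that had been dosed once a day by oral gavage for 5 days, fasted overnight and necropsied 24 h after the last dose. ANIT (alpha-naphthylisothiocyanate, a bile duct toxicant) at 100 mg/kg was set against corn oil at 5 ml/kg. MDA (methylenedianiline, which also injures bile ducts) at 100 mg/kg was set against 35% ethanol at 2 ml/kg. APAP (acetaminophen) at 1000 mg/kg was set against corn oil at 2 ml/kg, and DCLF (diclofenac) at 10 mg/kg against water at 10 ml/kg, both from a single in-life study. Each group held 3 rats except water, which held 2. Among the compounds compared here, no vehicle group served more than 1. In the paper, carbon tetrachloride is listed with ANIT under corn oil at 5 ml/kg. Serum and tissue iron were not analysed here.

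Hepcidin is a peptide hormone made by hepatocytes. It binds ferroportin on macrophages, enterocytes and hepatocytes and causes its degradation, so that less iron enters plasma. Its transcription is driven by bone morphogenetic protein (BMP) signals that report iron load, with Hfe and Tfr2 as sensors of iron-laden transferrin, and by interleukin 6 acting through Stat3 in inflammation. Hemopexin carries free heme and ceruloplasmin is a copper oxidase that prepares iron for transferrin, and both are secreted by the liver as acute phase proteins.

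Values are log2 expression as deposited, so a difference of 1 is a doubling, and levels of different probe sets cannot be set against each other. They ran from 4.65 to 15.99, and sample medians from 8.95 to 9.02. The hepatocyte genes Alb, Ttr and Apoa1 lay at or above 13.08 in every sample. There were 3 arrays that stood apart at the top of the scale. The highest value was 14.57 to 14.97 on ANIT replicates 1 and 2 and corn oil 5 ml/kg replicate 2, against 15.86 to 15.99 on the other 20. The level exceeded by 0.1% of probe sets was 14.28 to 14.34, against 14.92 to 15.45. This touches bright probe sets in the ANIT comparison, among them those of Hpx, Cp and several acute phase genes, and results are therefore also given without these arrays. That leaves ANIT replicate 3 against 2 corn oil livers, with the spread taken from the vehicle pair alone, so these values show a size and carry no replicate check for ANIT. With 2 or 3 arrays a group, precision is limited throughout.

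Calls required a fold change over 1.5 together with an adjusted p under 0.05 across all probe sets. Of the 8 genes, 2 were called in MDA livers (Hpx and Cp, both higher), where 9.13% of all genes were called (4.9% higher and 4.23% lower). In ANIT livers 0 of 8 were called against 7.22% of all genes (3.84% higher and 3.38% lower), in APAP livers 0 of 8 against 0.324%, and in DCLF livers 0 of 8 against 0%. The lowest adjusted p of the 8 was 0.041 in ANIT, 0.00239 in MDA, 0.0558 in APAP and 0.407 in DCLF livers. The compound and vehicle samples did not overlap for 3 genes in ANIT livers (33% of all genes), 4 in MDA livers (35.6%), 4 in APAP livers (17.5%) and 4 in DCLF livers (30.9%). The median log2 change of the 8 was 0.301 in ANIT livers (all genes -0.0161), 0.263 in MDA livers (0.00197), 0.0442 in APAP livers (0.0175) and 0.0338 in DCLF livers (-0.0328). These shares and medians over all genes also stand beside the counts and medians of the gene lists below. In whole liver, fewer cells of a type and less RNA per cell cannot be told apart.

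**Figure D1:**
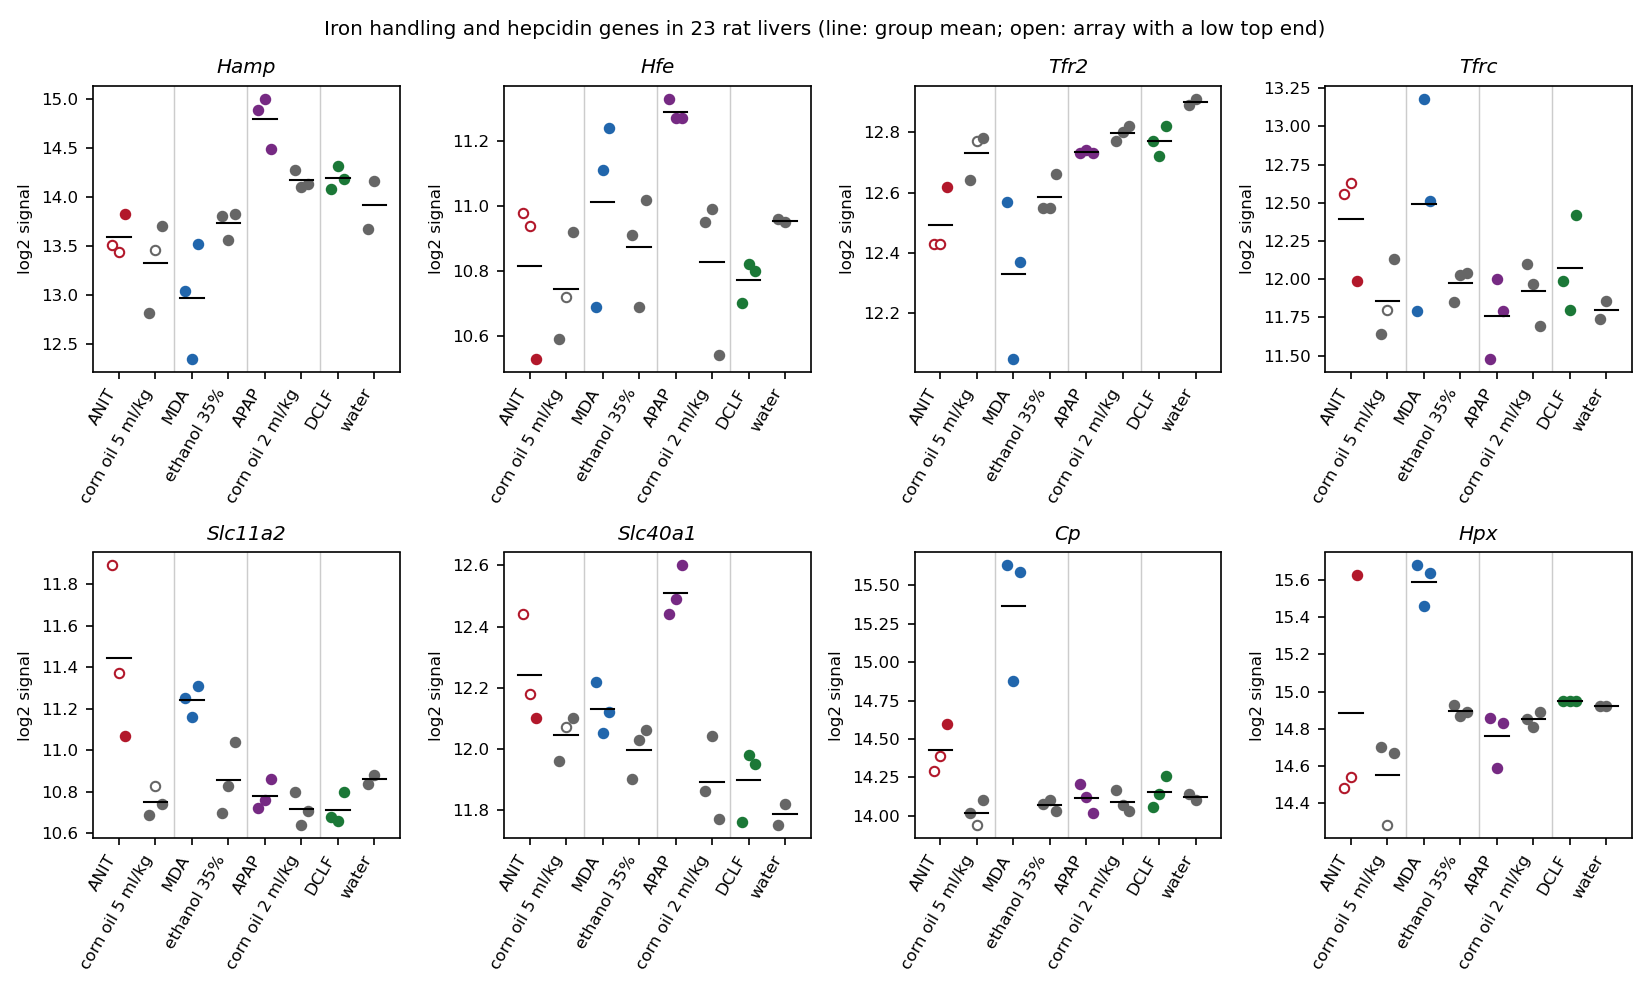
Log2 expression of each of the 8 measured iron genes in every liver, with each compound left of its vehicle. Each point is 1 rat, lines mark group means, and open symbols mark the 3 arrays with a low top end; Hpx and Cp of all 3 MDA livers sit above all 3 ethanol livers (for Cp 14.88 to 15.63 against 14.03 to 14.10).

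Hamp, the hormone gene on chromosome 1, had lower values in MDA livers and higher values in APAP livers, and in neither did it pass the adjusted test. In MDA livers the log2 values were 13.04, 12.35 and 13.52, against 13.81, 13.56 and 13.83 in ethanol livers. All 3 MDA livers lay below all 3 ethanol livers, with MDA replicate 2 lowest of all 23 samples. The log2 difference was -0.76 ± 0.256 (SE, 95% interval -1.35 to -0.18), that is 1.70-fold lower, at an adjusted p of 0.0945. Without MDA replicate 3 the difference was -1.04 and was called, as it was with the spread estimated from all 8 groups (adjusted p 0.0271). Across all single omissions it lay between -1.04 and -0.45.

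In APAP livers Hamp had values of 14.89, 15 and 14.49, against 14.28, 14.10 and 14.13 in corn oil livers. The groups did not overlap. The difference was 0.63 ± 0.134 (SE, 95% interval 0.32 to 0.93), 1.54-fold higher, at an unadjusted p of 0.00162 and an adjusted p of 0.167. Without APAP replicate 3, the lowest of its group, it was 0.78 at an adjusted p of 0.0414.

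ANIT livers had Hamp values of 13.51, 13.44 and 13.83, against 12.81, 13.46 and 13.70 in corn oil livers. Here the groups overlapped, and the vehicle group held a single low sample. The difference was 0.27 ± 0.221 (SE, adjusted p 0.555). DCLF livers had 14.08, 14.32 and 14.18, against 13.67 and 14.16 in water livers, again with overlap, for a difference of 0.28 ± 0.15 (SE, adjusted p 0.484).

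The ANIT effect on Hamp minus the MDA effect was 1.04 ± 0.379 (SE, 95% interval 0.21 to 1.86, adjusted p 0.276). That interval lay above 0, while the adjusted test across all probe sets was not passed, as for the APAP effect minus the DCLF effect at 0.35 ± 0.22 (adjusted p 0.548). Ordered by group mean, Hamp was highest in APAP livers (14.79 ± 0.269, SD) and lowest in MDA livers (12.97 ± 0.59, SD). Between these lay DCLF 14.19, corn oil 2 ml/kg 14.17, water 13.92, ethanol 13.73, ANIT 13.59 and corn oil 5 ml/kg 13.32. Only the step between APAP and DCLF separated neighbours without overlap. The vehicle groups alone spanned 0.85, the widest vehicle span of the 8 genes, so levels across studies are shown as description.

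The Hamp promoter is printed because it holds letters of both textbook inputs to hepcidin, the BMP response element and the STAT site. Capitals mark GGCGCC at positions -129 to -124 and a match to TTCNNNGAA at positions -117 to -109, counted back from the start; the sequence is from RefSeq (GRCr8), chr1:95300272-95300421, minus strand, ending at position -1.
Hamp: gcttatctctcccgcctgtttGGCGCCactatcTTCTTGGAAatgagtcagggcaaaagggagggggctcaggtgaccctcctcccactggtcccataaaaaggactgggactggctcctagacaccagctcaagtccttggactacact
Each of these motifs is its own reverse complement and was searched on both strands of the 250 bases before the start. GGCGCC stood in 8.69% of 33469 promoters of that length and in 2 of the 9 promoter entries of these genes, those of Hamp and Tfrc. TTCNNNGAA stood in 7.67% of all and in that of Hamp alone. The E-box CACGTG stood in 5.59% and in 0 of the 9. A match is a stretch of letters and was not measured as a bound site.

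Tfr2, the hepatocyte sensor of transferrin saturation on chromosome 12, had a negative difference in all 4 comparisons without passing the test in any. ANIT livers had 12.43, 12.43 and 12.62, against 12.64, 12.77 and 12.78 in corn oil livers. The ANIT livers lay below all their vehicle samples, the highest of them just under the lowest vehicle sample, with a difference of -0.24 ± 0.0872 (SE, adjusted p 0.145). In MDA livers the values were 12.57, 12.05 and 12.37, against 12.55, 12.55 and 12.66 in ethanol livers. These groups overlapped through MDA replicate 1, and the difference was -0.26 ± 0.132 (SE, adjusted p 0.281). APAP livers (12.73 to 12.74) and DCLF livers (12.72 to 12.82) also lay wholly below their vehicles (12.77 to 12.82 and 12.89 to 12.91), by -0.07 ± 0.0644 and -0.13 ± 0.0774 (SE, adjusted p 0.758 and 0.521).

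Hfe, the partner of the sensor complex, on chromosome 17, had its widest difference in APAP livers, short of the adjusted test. Its values were 11.33, 11.27 and 11.27 in APAP livers, against 10.95, 10.99 and 10.54 in corn oil livers. The 3 APAP livers were tightly grouped above the vehicle samples, of which replicate 3 was lowest. The difference was 0.46 ± 0.122 (SE, 95% interval 0.18 to 0.74) at an unadjusted p of 0.00531 and an adjusted p of 0.263. In DCLF livers all 3 samples (10.70 to 10.82) were below both water samples (10.95 and 10.96), by -0.18 ± 0.0802 (SE, adjusted p 0.407). The APAP effect minus the DCLF effect was 0.64 ± 0.158 (SE, 95% interval 0.30 to 0.99, adjusted p 0.17). In ANIT and MDA livers the differences were 0.07 ± 0.142 and 0.14 ± 0.153 (SE), with overlapping groups.

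Slc40a1, the only known cellular iron exporter, on chromosome 9, had the lowest adjusted p of the 8 genes in APAP livers. Its values were 12.44, 12.49 and 12.60 in APAP livers, against 11.86, 12.04 and 11.77 in corn oil livers. The gap between the groups was wider than the range within either. The difference was 0.62 ± 0.0904 (SE, 95% interval 0.41 to 0.83), 1.54-fold higher, at an unadjusted p of 0.000136 and an adjusted p of 0.0558, just outside the threshold. It was called in 4 of 9 alternatives that kept all arrays, among them the spread estimated from all 8 groups (adjusted p 0.00126), and in 0 of 6 single omissions (adjusted p 0.0798 to 0.21).

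The other probe sets of Slc40a1 also separated APAP livers from their vehicle, at 0.51 ± 0.113 and 0.44 ± 0.101 (SE, adjusted p 0.182 and 0.194). In DCLF livers the main probe set differed by 0.11 ± 0.0947 (SE, adjusted p 0.674), and the APAP effect minus the DCLF effect was 0.51 ± 0.132 (SE, 95% interval 0.22 to 0.80, adjusted p 0.184). ANIT livers had 12.44, 12.18 and 12.10, against 11.96, 12.07 and 12.10 in corn oil livers, and MDA livers 12.22, 12.05 and 12.12, against 11.90, 12.03 and 12.06 in ethanol livers. Both pairs overlapped, at 0.19 ± 0.105 and 0.13 ± 0.0897 (SE, adjusted p 0.339 and 0.437).

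Tfrc, which takes up transferrin-bound iron and whose mRNA is stabilised when iron is scarce, lies on chromosome 11. Its main probe set read 12.56, 12.63 and 11.99 in ANIT livers, against 11.64, 11.80 and 12.13 in corn oil livers. ANIT replicate 3 lay within the vehicle range while the others lay above it, and the difference was 0.54 ± 0.192 (SE, adjusted p 0.138). Without that replicate it was 0.74 and was called. The second Tfrc probe set was called higher in ANIT livers, as were 2.63% of all probe sets, with values of 10.84, 10.77 and 10.26, against 9.69, 9.81 and 10.16. Its difference was 0.74 ± 0.179 (SE, adjusted p 0.0414), and it was 0.34 without the 3 arrays of a low top end. Of single omissions only that of ANIT replicate 3 kept it, with 0.63 to 0.87 in the others.

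In MDA livers Tfrc varied most, with 11.79, 13.18 and 12.51, against 11.85, 12.03 and 12.04 in ethanol livers. MDA replicate 1 was below every vehicle sample and replicate 2 the highest of all 23. The difference was 0.52 ± 0.293 (SE, adjusted p 0.326), and 0.88 without replicate 1, where it was called. APAP and DCLF livers overlapped with their vehicles, at -0.16 ± 0.15 and 0.27 ± 0.173 (SE, adjusted p 0.755 and 0.549).

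Slc11a2, which moves ferrous iron across the endosomal and cell membrane, lies on chromosome 7 and was higher in every ANIT and MDA liver than in any sample of its vehicle. ANIT livers had 11.89, 11.37 and 11.07, against 10.69, 10.83 and 10.74 in corn oil livers. The ANIT samples were spread widely above a narrow vehicle group, with replicate 1 highest. The difference was 0.69 ± 0.188 (SE, 95% interval 0.25 to 1.13), 1.61-fold higher, at an adjusted p of 0.0604, and 0.88 and called without replicate 3. MDA livers had 11.25, 11.16 and 11.31, against 10.70, 10.83 and 11.04 in ethanol livers. There the compound group was the narrow one, and the difference was 0.39 ± 0.107 (SE, 95% interval 0.14 to 0.63, adjusted p 0.0501).

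The second Slc11a2 probe set read 10.20, 10.07 and 10.04 in ANIT livers, against 9.71, 9.70 and 9.76 in corn oil livers. It passed the adjusted test at 0.38 ± 0.0774 (SE, adjusted p 0.0217) but its fold of 1.30 was under 1.5. The main probe set was called in ANIT livers with the spread from all 8 groups, without the dimmest 25% of probe sets and after quantile normalization (0.76 ± 0.157, SE, adjusted p 0.0216), while without the 3 arrays of a low top end it was 0.35. APAP and DCLF livers differed from their vehicles by 0.06 ± 0.0779 and -0.15 ± 0.0832 (SE, adjusted p 0.815 and 0.502).

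**Figure D2:**
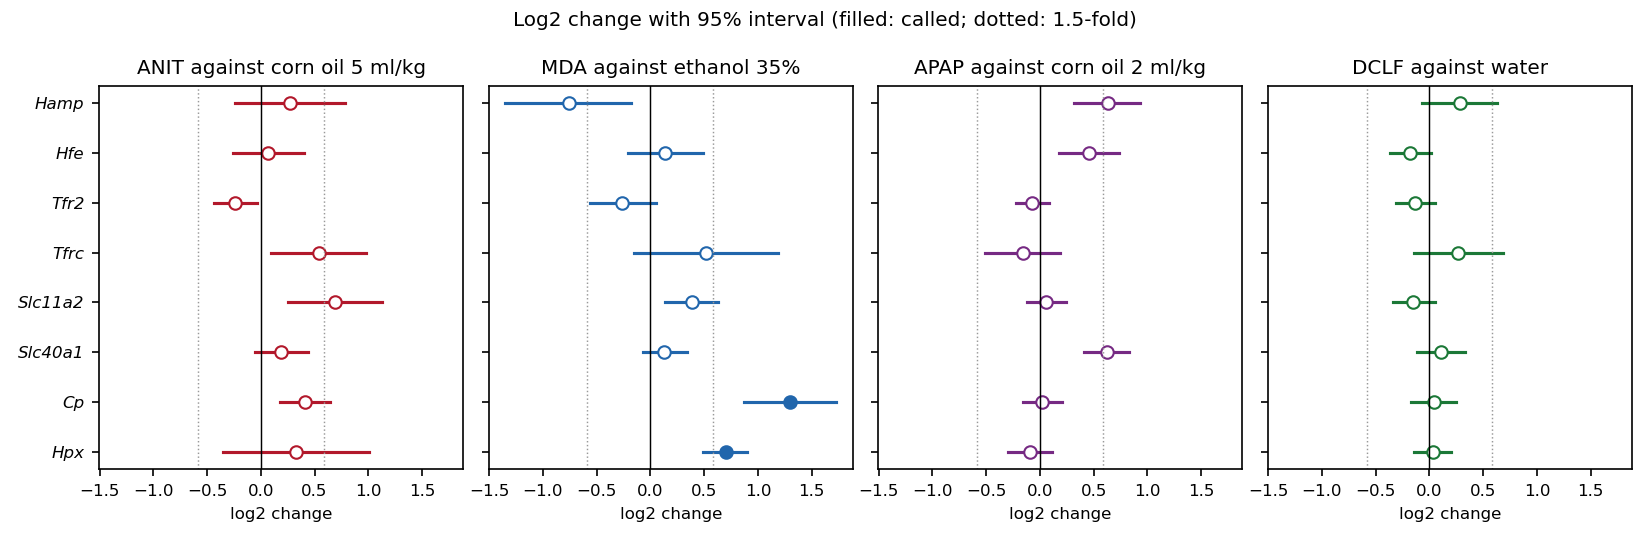
Log2 change of the 8 iron genes in each compound against its own vehicle, with 95% intervals from limma; filled points were called. Only Hpx (0.70) and Cp (1.30) in MDA livers are filled, and Hamp lies on opposite sides of 0 in MDA (-0.76) and APAP livers (0.63).

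Hpx, the plasma heme carrier on chromosome 1, rose in MDA livers. Its values were 15.68, 15.46 and 15.64 in MDA livers, against 14.93, 14.87 and 14.89 in ethanol livers. Both groups were narrow and far apart. The log2 difference was 0.70 ± 0.0899 (SE, 95% interval 0.49 to 0.90), 1.62-fold higher, at an adjusted p of 0.00239, and it stayed between 0.65 and 0.76 and called when any single array was left out.

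In ANIT livers Hpx read 14.48, 14.54 and 15.63, against 14.70, 14.28 and 14.67 in corn oil livers. ANIT replicate 3 was as high as the MDA livers, and the 2 low values belong to the arrays with a low top end. The difference as deposited was 0.33 ± 0.293 (SE, 95% interval -0.35 to 1.01, adjusted p 0.59). Quantile normalization gave 15.63, 15.57 and 15.51 in ANIT livers, against 14.76, 14.89 and 14.58, with no overlap and a called difference of 0.83 ± 0.0926 (SE, adjusted p 0.00218). Without the 3 arrays of a low top end it was 0.94, which rests on ANIT replicate 3, the highest of its group as deposited. APAP livers (14.59 to 14.86) overlapped with corn oil livers (14.81 to 14.89), at -0.09 ± 0.0885, and DCLF livers were all at 14.95, against 14.92 in both water livers, at 0.03 ± 0.0736 (SE, adjusted p 0.893).

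**Figure D3:**
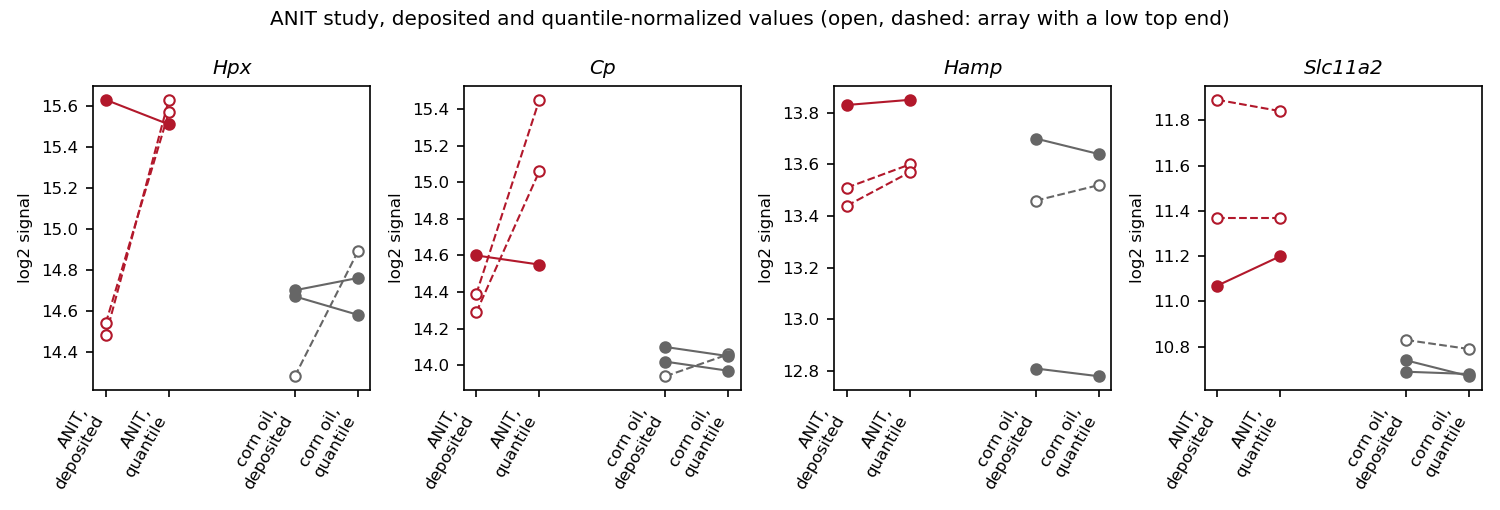
Hpx, Cp, Hamp and Slc11a2 in ANIT and corn oil 5 ml/kg livers as deposited and after quantile normalization, in log2 units, 1 point per rat with open symbols for the 3 arrays with a low top end. Hpx of ANIT replicate 1 reads 14.48 as deposited and 15.63 after quantile normalization, while Hamp keeps its overlap of groups.

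Cp, the ferroxidase gene on chromosome 2, rose most of the 8 in MDA livers. The values were 15.63, 14.88 and 15.59 in MDA livers, against 14.08, 14.10 and 14.03 in ethanol livers. MDA replicate 2, which was also lowest for Hamp, was the lowest of its group and still above every vehicle sample. The difference was 1.30 ± 0.186 (SE, 95% interval 0.87 to 1.73), 2.46-fold higher, at an adjusted p of 0.00354, and 1.17 to 1.54 when any single array was left out.

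ANIT livers had Cp values of 14.29, 14.39 and 14.60, against 14.02, 13.94 and 14.10 in corn oil livers. No sample overlapped, and the difference of 0.41 ± 0.0989 (SE, 95% interval 0.18 to 0.64) had an adjusted p of 0.041 with a fold of 1.33, under the fold threshold. An adjusted p under 0.05 with no fold threshold was reached by 12.8% of all genes. Quantile normalization gave 15.06, 15.45 and 14.55 in ANIT livers, against 13.97, 14.06 and 14.05 in corn oil livers. The difference was then 1.0 ± 0.201 (SE, adjusted p 0.0199) and was called. That size rests on ANIT replicates 1 and 2, the arrays of a low top end, which were raised above replicate 3, the highest as deposited. Without the 3 arrays of a low top end the difference was 0.54. The ANIT effect minus the MDA effect was -0.89 ± 0.23 (SE, 95% interval -1.39 to -0.40, adjusted p 0.0921). It was called with the spread from all 8 groups (adjusted p 0.0168) and without MDA replicate 2 (-1.14). In APAP and DCLF livers the differences were 0.02 and 0.04, with overlapping groups.

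The array carries 3 probe sets for Cp, and they did not move together. Beside the one above, which is the brightest, the second was higher in MDA livers at 14.67, 14.57 and 14.52, against 14.02, 14.09 and 13.97 in ethanol livers, by 0.56 ± 0.0852 (SE, adjusted p 0.00461). This was 1.47-fold and so under the fold threshold. The third, the dimmest, was lower, at 11.35, 11.08 and 11.14 in MDA livers, against 11.70, 11.70 and 11.60 in ethanol livers, by -0.47 ± 0.0984 (SE, adjusted p 0.0171). All 3 MDA livers lay below all 3 ethanol livers there, 1.39-fold. The same probe set had -0.45 ± 0.185 in ANIT and -0.34 ± 0.112 in APAP livers (SE, adjusted p 0.198 and 0.367). The mean of all 3 probe sets gave Cp a change of 0.46 in MDA livers, which was not called. Which transcripts of Cp each probe set reads was not tested.

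**Figure D4:**
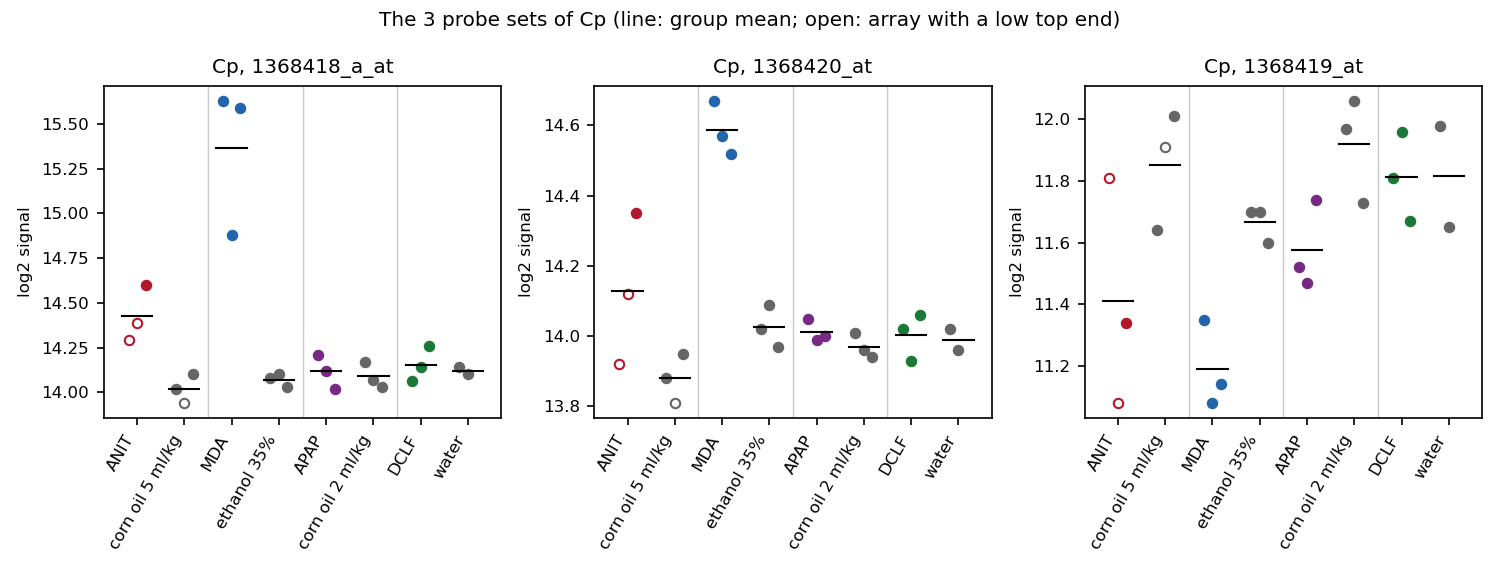
Log2 expression of the 3 Cp probe sets in each liver, compound left of vehicle and 1 point per rat. The panels run in order of brightness, and MDA livers lie above the ethanol livers in the left and middle panels (by 1.30 and 0.56) and below them in the right panel (by -0.47).

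The promoters of both genes called in MDA livers are printed to show the bases before their starts. They are from RefSeq (GRCr8), positions -150 to -1 from the start given there, Hpx from chr1:169352156-169352305 on the minus strand and Cp from chr2:104368520-104368669 on the plus strand.
Hpx: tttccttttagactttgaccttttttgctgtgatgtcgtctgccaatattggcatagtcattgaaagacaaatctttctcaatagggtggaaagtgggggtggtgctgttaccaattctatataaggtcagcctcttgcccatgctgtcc
Cp: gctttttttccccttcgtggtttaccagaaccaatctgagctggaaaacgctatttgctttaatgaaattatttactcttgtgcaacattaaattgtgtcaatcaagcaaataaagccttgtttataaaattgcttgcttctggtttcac
None of the motifs marked in the Hamp promoter stood in these windows, which says only that those letters are absent here.

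Ordered by group mean across all 8 groups, few neighbours were separated without overlap. For Cp the MDA livers (15.37) stood above ANIT livers (14.43), and these above DCLF livers (14.16). For Hpx the MDA livers (15.60) stood first, with DCLF livers (14.95) above water livers (14.92). For Slc11a2 the MDA livers (11.24) stood above water livers (10.86), for Hfe the APAP livers (11.29) above MDA livers (11.01), and for Tfr2 water livers (12.90) above those given corn oil at 2 ml/kg (12.80). The groups next to each other overlapped everywhere for Tfrc and Slc40a1. The means of the 4 vehicle groups spanned 0.1 for Cp, 0.15 for Slc11a2, 0.18 for Tfrc, 0.21 for Hfe, 0.26 for Slc40a1, 0.32 for Tfr2 and 0.37 for Hpx.

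The patterns most like those of Hpx and Cp were sought among all genes, by the mean absolute difference over the 12 compound samples between log2 changes from the mean of the own vehicle. For Hpx these were Tdp1 (0.143), Kctd14 (0.15) and Olfml2b (0.156), whose changes in MDA livers were 0.47, 0.73 and 0.55. For Cp they were Usp43 (0.182), Birc3 (0.189) and Fxyd5 (0.189), whose changes in MDA livers were 1.07, 1.02 and 1.44. The likeness rests on shared samples and is a description.

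Of 12 measured markers of Kupffer cells and macrophages, 9 were called higher and 0 lower in MDA livers, with the log2 of their summed level at 15.40 to 15.67, against 14.53 to 14.79 in ethanol livers. Of 10 hepatocyte markers 4 were called lower and 0 higher in MDA livers, at 18.03 to 18.27, against 18.45 to 18.51. Those lower were Cyp2e1 (-1.23), Tat (-0.86), Rbp4 (-0.84) and Hnf4a (-0.65). The others were Ttr (-0.38), Ahsg (-0.31), Asgr1 (-0.17), Serpina1 (-0.04), Alb (-0.02) and Apoa1 (0.75). Alb reached 15.99, the highest value on any array. Its small change at the top of the scale cannot show whether the transcript fell. The MDA livers thus had a lower summed hepatocyte level and a higher summed macrophage level. These stood beside the lower Hamp, which was not called, and the higher Hpx and Cp, all known as hepatocyte transcripts. Of 10 stellate cell and fibroblast markers, 5 were called higher and 1 lower in MDA livers (13.98 to 14.16, against 12.98 to 13.47). In ANIT livers 5 were also called higher and 1 lower (14.01 to 14.28, against 13.49 to 13.73). In MDA livers 2 of 8 cholangiocyte, 2 of 9 lymphocyte and 1 of 8 neutrophil markers were called higher and 0 lower. In ANIT livers 3 of 12 macrophage markers were called higher and 1 lower (15.07 to 15.37, against 14.91 to 15.05). Dividing cell markers were called higher in 10 of 12 in ANIT livers (13.74 to 14.32, against 12.61 to 12.72) and in 3 of 12 in MDA livers (13.04 to 13.64, against 12.83 to 12.91). Tfrc is also a gene of dividing cells, and the part of any of these cell types in the results was not tested.

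Of 8 measured markers of red blood cell precursors and reticulocytes, Hbb and Alas2 alone were called, both lower, in ANIT livers (log2 of the sum 13.09 to 13.34, against 14.09 to 14.45 in corn oil livers) and in MDA livers (13.40 to 13.83, against 14.10 to 14.62 in ethanol livers). The medians of the 8 were -0.264 and -0.11. In APAP livers the median was 0.004, and the single one called was Hbb, the beta globin gene, at -2.66 ± 0.31 (SE, adjusted p 0.0227), with the sum at 12 to 12.31, against 13.10 to 13.91 in corn oil livers. Alas2 in APAP livers was -1.61 ± 0.241 (SE, adjusted p 0.0594) and was not called. In APAP livers 0 of 12 macrophage markers were called (14.37 to 15.09, against 14.18 to 14.85), beside the higher values of Slc40a1, a gene that macrophages express. Whether either marker group has a part in the values of Hamp, Slc40a1 and Hfe in APAP livers was not tested.

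Among the regulators of hepcidin through BMP receptors and SMAD proteins, 20 genes were measured. In ANIT livers 1 was called higher and 2 lower, with a median of -0.174. Of all genes 3.84% were called higher and 3.38% lower there, with a median of -0.0161. Id1, a transcriptional target of BMP signals, rose in ANIT livers, at 10.23, 10.10 and 9.81, against 9.19, 9.27 and 9.50 in corn oil livers (0.73 ± 0.13, SE, adjusted p 0.0133). It was not called with the other compounds, at 0.76 ± 0.225 in APAP livers, 0.59 ± 0.131 in DCLF livers and 0.37 ± 0.107 in MDA livers (SE, adjusted p 0.316, 0.294 and 0.0578). Its groups overlapped for APAP alone. Of the same list, Id2 (-0.11), Id3 (-0.18), Atoh8 (-0.37) and Smad6 (0.08), named after their values were seen, were not called in ANIT livers. Nor was Smad7 (-0.60, adjusted p 0.123). Bmp2, a ligand made by liver endothelium, fell, at 10.54, 10.33 and 10.12, against 11.36, 11.34 and 11.44. No ANIT sample of Id1 or Bmp2 overlapped with its vehicle, and Bmp2 fell by 1.05 on the log2 scale (SE 0.113, adjusted p 0.00182). Of 7 endothelial markers 2 were called lower in ANIT livers, Stab1 (-0.75) and Kdr (-0.73), with the log2 of the summed level at 13.97 to 14.02, against 14.15 to 14.19, and their part in the Bmp2 result was not tested. The corn oil 5 ml/kg livers were also above every liver of the other vehicle groups for Bmp2 (9.73 to 10.85), and the ANIT values lay within that range. Cebpa, a hepatocyte transcription factor, fell by 0.59 (SE 0.106, adjusted p 0.0136), and without the 3 arrays of a low top end Id1 was 0.47 and Cebpa -0.46. Omitting corn oil replicate 1 (0.66) or 2 (0.70) ended the Id1 call, and Cebpa was not called without ANIT replicate 2 (-0.53) or corn oil replicate 2 (-0.55) or 3 (-0.53).

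In MDA livers 1 of the 20 was called higher and 3 lower, with a median of -0.289. Of all genes 4.9% were called higher and 4.23% lower there, with a median of 0.00197. Smad7, which inhibits BMP and TGF beta signals, fell by 0.81 (SE 0.199, adjusted p 0.0316), at 9.36, 9.34 and 9.56 in MDA livers, against 9.72, 10.52 and 10.45 in ethanol livers. The groups did not overlap, but of single omissions only that of ethanol replicate 1 kept the call, with -0.88 to -0.67 in the others. Cebpa fell by 0.63 (SE 0.107, adjusted p 0.00779), the type I receptor Acvr1 fell by 0.60 (SE 0.128, adjusted p 0.0189), and Fgl1, a secreted hepatocyte protein, rose by 0.61 ± 0.106 (SE, adjusted p 0.00844). These calls were lost without MDA replicate 1 (Cebpa -0.54, Acvr1 -0.58, Fgl1 0.55), for Acvr1 also without MDA replicate 2 (-0.52) or ethanol replicate 3 (-0.51), and for Fgl1 without MDA replicate 3 (0.56). Id1 read 9.54, 9.43 and 9.29 in MDA livers, against 9.19, 9.03 and 8.91 in ethanol livers, and was not called.

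The ANIT effect on Bmp2 minus the MDA effect was -1.08 ± 0.166 (SE, adjusted p 0.0104), one of the 1.67% of genes called in that difference. In MDA livers Bmp2 read 10.47, 10.60 and 10.82, against 10.62, 10.72 and 10.48 in ethanol livers. The separation of Bmp2 from its vehicle thus held for ANIT livers, while the MDA groups overlapped.

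The interleukin 6 route was represented by 8 genes, of which 1 was called higher with each of ANIT and MDA, and the medians were 0.0324 and 0.157. Stat3, the transcription factor that carries the interleukin 6 signal to the hepcidin promoter, rose in ANIT livers, at 12.19, 12.28 and 12.30, against 11.54, 11.46 and 11.55 in corn oil livers (0.74 ± 0.0747, SE, adjusted p 0.0015). The kinase Jak2 rose in MDA livers by 0.64 ± 0.127 (SE, adjusted p 0.0144), a call lost without MDA replicate 1 (0.55) or ethanol replicate 2 (0.53). Of 15 acute phase genes, the class to which Hpx and Cp belong, 2 were called higher and 0 lower in ANIT livers and 3 higher and 1 lower in MDA livers, with medians of -0.0107 and 0.0423. Those higher were Lcn2, a binder of bacterial iron chelators, and Lbp (1.16 ± 0.107 in ANIT, 1.56 ± 0.0991 in MDA) with both compounds, and Orm1 (1.62 ± 0.151) in MDA livers. Orm1 in ANIT livers read 14.45, 14.70 and 15.82, against 13.91, 13.32 and 13.84 in corn oil livers, with no overlap, at 1.30 ± 0.339 (SE, adjusted p 0.0522). Its 2 lower ANIT values are from arrays with a low top end. Other bright acute phase genes had wide errors in ANIT livers, such as Hp (-0.22, SE 0.438) and C3 (-0.30, SE 0.429), both named after their values were seen. Apcs fell by 0.62 in MDA livers (SE 0.0954, adjusted p 0.00476), and was -0.55 and not called without MDA replicate 2.

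The ferritin genes Fth1 and Ftl1 had no probe set of their own. Of 7 genes for iron sensing and for the handling of ferritin iron, 1 was called lower in each of ANIT and MDA livers, and it was Ireb2 in both. Ireb2 encodes an iron regulatory protein that binds transferrin receptor and ferritin mRNAs when iron is scarce. It read 10.59, 10.76 and 10.52 in ANIT livers, against 11.22, 11.29 and 11.35 in corn oil livers. In MDA livers it read 10.01, 10.03 and 9.82, against 10.96, 10.81 and 10.67 in ethanol livers. Neither pair overlapped, and Ireb2 fell by 0.67 (SE 0.0884, adjusted p 0.00412) in ANIT livers and by 0.86 (SE 0.106, adjusted p 0.002) in MDA livers. Aco1, of the same list and named after its values were seen, was -0.02 in ANIT and -0.18 in MDA livers (adjusted p 0.961 and 0.434).

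Among 10 other genes of iron uptake and reduction, 0 were called in ANIT livers and 1 in MDA livers. That was Heph, a membrane ferroxidase related to ceruloplasmin, at 9.05, 8.67 and 8.42 in MDA livers, against 7.83, 7.82 and 7.91 in ethanol livers. It rose by 0.86 ± 0.15 (SE, adjusted p 0.00845), while ANIT livers at 7.98, 8.01 and 7.91 overlapped with corn oil livers at 7.95, 7.97 and 7.87. The ANIT effect minus the MDA effect was -0.82 ± 0.177 (SE, adjusted p 0.0453) and was called. Of 8 genes of copper uptake and intracellular copper delivery, 0 were called with any compound.

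Heme genes, 18 in number, moved in both directions. Hmox1, the inducible heme oxygenase that frees iron from heme, rose in ANIT and MDA livers. It read 11.98, 12.26 and 12.30 in ANIT livers, against 11.21, 11.45 and 11.17 in corn oil livers (0.90 ± 0.116, SE, adjusted p 0.0036). In MDA livers it read 12.09, 12.34 and 11.82, against 11.24, 11.07 and 11.05 in ethanol livers (0.96 ± 0.135, SE, adjusted p 0.00331). In both pairs every compound sample was above every vehicle sample. This held for APAP livers too, at 11.92, 11.70 and 12.19, against 10.53, 11.06 and 11.44 in corn oil livers, where Hmox1 was not called (0.93 ± 0.223, SE, adjusted p 0.211).

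In ANIT livers 3 heme genes fell. They were Alas1, the rate-limiting enzyme of heme synthesis (fell by 1.0, SE 0.235, adjusted p 0.0362, a call that of single omissions only that of ANIT replicate 2 kept, with -1.11 to -0.80 in the others), Fech, which inserts iron into the porphyrin ring (fell by 0.75, SE 0.118, adjusted p 0.00805), and the heme and folate carrier Slc46a1 (fell by 0.90, SE 0.123, adjusted p 0.00465). Alas1 read 11.56, 12.13 and 11.31 in ANIT livers, against 12.45, 12.49 and 13.07 in corn oil livers. These corn oil livers were above every liver of the other vehicle groups for Alas1 (11.40 to 12.32). Of the ANIT values only 11.31 lay outside that range, just below it. In MDA livers Slc46a1 was the only heme gene called lower, and it fell by 0.77 (SE 0.0896, adjusted p 0.00153). Ppox, Alad, Cpox and Lrp1, named after their values were seen, had an adjusted p under 0.05 in MDA livers with changes under the fold threshold, of -0.51, -0.44, -0.36 and -0.52. The breakdown enzyme Blvra (0.64 ± 0.11), the endosomal heme transporter Slc48a1 (0.69 ± 0.101) and Flvcr2 (0.90 ± 0.182) rose beside Hmox1 in MDA livers, the call of Blvra being lost without MDA replicate 3 (0.56) and that of Flvcr2 without ethanol replicate 2 (0.88, adjusted p 0.0606). Slc48a1 was 0.66 ± 0.139 in APAP livers (SE, adjusted p 0.159). Medians over the 18 were -0.0462 in ANIT livers and -0.169 in MDA livers.

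Of 15 genes of mitochondrial iron and iron-sulfur assembly, Cisd1, an outer membrane iron-sulfur protein, fell in ANIT livers by 0.83 (SE 0.0849, adjusted p 0.00157), and 0 were called in MDA livers. The medians were -0.262 and -0.109. In APAP and DCLF livers 0 genes were called in any of these lists. Called for a difference of effects were also Ppox (ANIT minus MDA, 0.65 ± 0.138, SE, adjusted p 0.0429) and Cpox (APAP minus DCLF, 0.69 ± 0.104, SE, adjusted p 0.0497), both of heme synthesis and both named after their values were seen. Neither was called with any compound against its own vehicle.

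**Figure D5:**
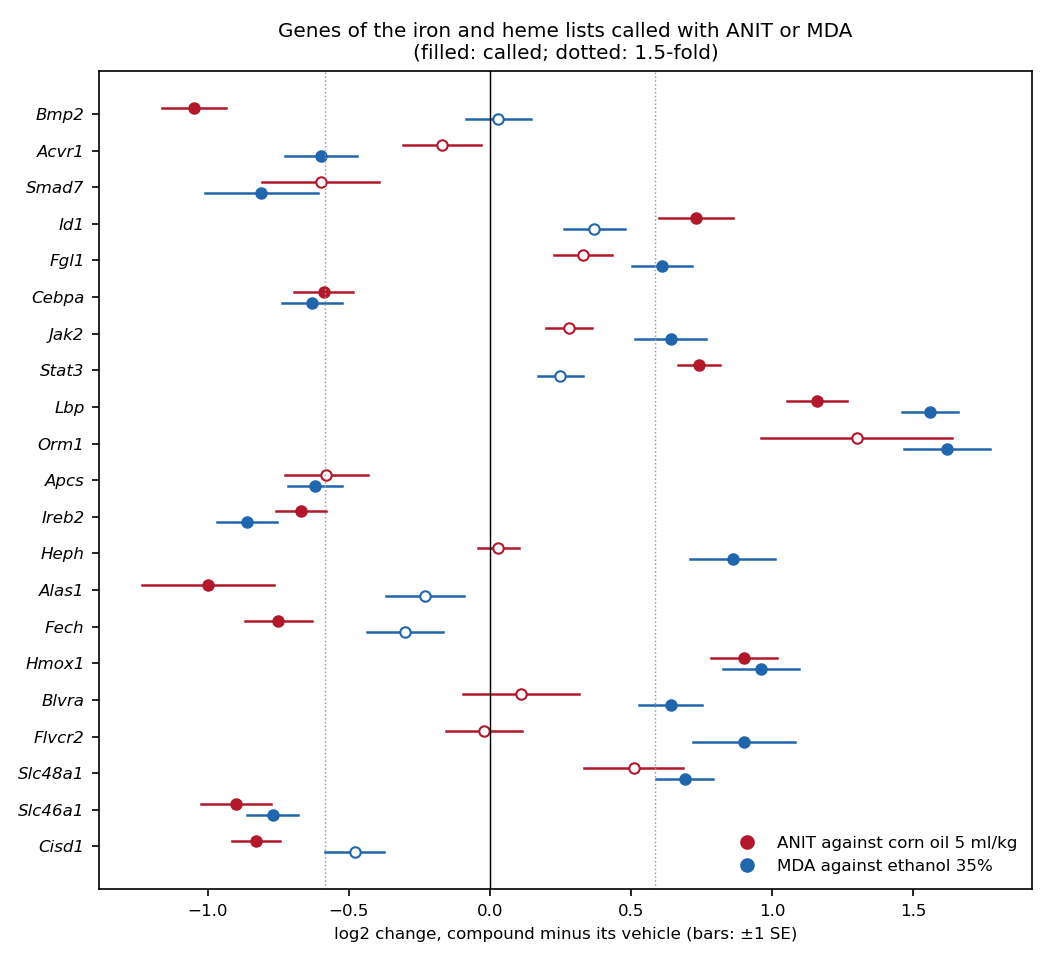
Log2 change of 21 genes of hepcidin control, iron sensing and heme that were called with ANIT or MDA, against the own vehicle of each compound; bars are 1 standard error from limma to either side, filled points were called and Lcn2 is left off. Ireb2 lies below 0 (-0.67 and -0.86) and Hmox1 above it (0.90 and 0.96) with both compounds, while Bmp2 is filled for ANIT alone (-1.05).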

How the data were processed

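The authors normalized the arrays by robust multi-array averaging (RMA) in Array Studio and deposited log2 values per probe set. No further transformation was added. Of 31099 probe sets, 57 Affymetrix controls were left out, and 31042 were tested. Probe sets were named through the platform annotation, with 20826 naming 1 gene, and 20758 of these were found by gene ID in a RefSeq name table. Replicates are separate rats, identified by the animal numbers that open the titles.

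Each compound and its vehicle were fitted on their own in limma 3.58.1 (R 4.3.3), with two-sided p-values adjusted by Benjamini-Hochberg over all probe sets. The ± values given with a change are standard errors. Calls needed an adjusted p under 0.05 and a fold change over 1.5. Differences of effects were contrasts over the 4 groups concerned. The scripts were tested on simulated data. Alternatives were quantile normalization, a trended and robust variance, the spread of all 8 groups, a filter on dim probe sets, the mean of all probe sets of a gene, leaving out each rat, and the two-sided t-test of the study's methods, called the methods' t-test.

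Named were all 9 members, list genes called with at least 1 compound (at most 8 per list), and for each called member the 3 genes most like it. Members and lists were chosen with earlier results of these data known. Promoters are from RefSeq (GRCr8), where 8 of the 9 genes had an entry. Carbon tetrachloride samples and sequencing were not analysed here.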

Additional observations from a re-analysis of the deposited data

How the results depend on the processing

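The 2 calls in MDA livers became 1 (Hpx) with the methods' t-test after adjustment and with the mean of all probe sets. They became 3, with Hamp added, with the spread of all 8 groups, and lay between 2 and 3 when single rats were left out. The 0 calls in ANIT livers became 3 after quantile normalization, 1 with the spread of all 8 groups, 1 without the dimmest 25% of probe sets, 1 with no fold threshold and 1 without the 3 arrays of a low top end, and lay between 0 and 2 without single rats. The 0 calls in APAP livers became 1 (Slc40a1) with the methods' t-test unadjusted, with the spread of all 8 groups, with a trended and robust variance and without the dimmest 25%, and lay between 0 and 1 without single rats. For ANIT minus MDA 0 calls became 1 with the spread of all 8 groups and lay between 0 and 1 without single rats. DCLF and APAP minus DCLF stayed at 0 calls under every alternative run. The omission of the 3 arrays was chosen after seeing the data, and its lone ANIT liver is assumed to vary like the 2 corn oil livers left.

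Of the values of single genes under an alternative, 1101 kept their direction and side of the threshold, 76 lost a call, 19 gained one and 35 changed sign. Sign changes were as follows. With the mean of all probe sets these were Slc11a2 (-0.01) and Cp (-0.09) in APAP livers and Slc40a1 (-0.05) in DCLF livers. Quantile normalization turned Tfr2 (-0.06) and Hpx (0.15, as deposited -0.37) in ANIT minus MDA and Cp (0.04) in APAP minus DCLF. Without the 3 arrays, Hfe was -0.23 in ANIT livers, and in ANIT minus MDA Tfrc was -0.42, Slc40a1 -0.07, Slc11a2 -0.03 and Hpx 0.24. Leaving out single rats gave Hfe -0.01 to 0.22 and Hpx -0.04 to 0.53 in ANIT livers, Cp -0.02 to 0.07 in APAP and -0.02 to 0.09 in DCLF livers. In ANIT minus MDA it gave Tfrc -0.34 to 0.36, Tfr2 -0.12 to 0.14, Slc40a1 -0.04 to 0.13 and Hfe -0.23 to 0.08, and in APAP minus DCLF Cp -0.06 to 0.04. The cause was not tested. No paired analysis was possible because compound and vehicle rats were different animals and the numbering of replicates pairs none of them.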
